A study of Mus musculus with 12 samples.

Results

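The 8 genes described here code for the proteins by which colon epithelium takes up, burns and senses butyrate and handles ketone bodies. They were chosen by symbol from the 54532 genes in the count files: the transporters Slc16a1 and Slc5a8, the mitochondrial enzymes Acads, Acat1, Bdh1 and Oxct1, and the receptors Hcar2 and Ffar2. RNA-seq was performed on the colon of C57BL/6 mice, 3 in each of 4 groups, and the replicate number follows the group in the name of a library (DSS 2 is replicate 2 of the DSS group). By the methods the mice were male, arrived at 6 weeks of age and carried no transgene or deletion that is described. The Con group received the gavage vehicle by the methods and is labelled untreated. The DSS group received vehicle and 3% (w/v) DSS (dextran sulfate sodium, a polymer that damages the gut lining and serves as a model of ulcerative colitis) in the drinking water for 5 days. The UA+DSS group received the same DSS and 200 mg/kg UA (ursolic acid, a plant triterpenoid) by daily gavage for 7 days from 1 day before DSS, and the DSS+UA group the same dose for 4 days from 3 days after DSS began, by the methods. The discussion of the study gives other numbers of days for both UA groups. The stretch of colon sampled is not given in the sources used here.

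Butyrate, a short-chain fatty acid made by gut bacteria from fibre, is the main fuel of colonocytes. It enters the cell through MCT1 (Slc16a1), which carries monocarboxylates together with protons, and through SMCT1 (Slc5a8), which carries them together with sodium. In the mitochondrion it is activated to butyryl-CoA, oxidized to acetoacetyl-CoA and cleaved to acetyl-CoA, or turned into the ketone bodies acetoacetate and beta-hydroxybutyrate. The same family of metabolites is sensed at the cell surface by GPR109A (Hcar2), which binds butyrate, beta-hydroxybutyrate and niacin, and by GPR43 (Ffar2), which binds acetate, propionate and butyrate. Both receptors are also known from neutrophils and other myeloid cells.

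On the mouse genome GRCm38, Slc16a1 (ENSMUSG00000032902) lies at chr3:104638668-104658462, Slc5a8 (ENSMUSG00000020062) at chr10:88885992-88929515, Bdh1 (ENSMUSG00000046598) at chr16:31422280-31458901 and Oxct1 (ENSMUSG00000022186) at chr15:4026383-4155344, all on the plus strand. On the minus strand, Acads (ENSMUSG00000029545) lies at chr5:115110299-115119346, Acat1 (ENSMUSG00000032047) at chr9:53580522-53610382, Hcar2 (ENSMUSG00000045502) at chr5:123863570-123865499 and Ffar2 (ENSMUSG00000051314) at chr7:30818348-30823775. All are protein-coding genes, and counts were taken per gene. Genes on the opposite strand share 533 of the 3888 exon bases of Bdh1 and 467 of the 3701 of Oxct1, but those genes held only 115 and 169 counts in the 12 libraries together. Other genes shared 0.322% of the 50-base stretches of Ffar2 and none of those of the other 7.

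The RefSeq promoter table (GRCm38.p6) held 6 of the 8 genes, without Acat1 and Hcar2. The 250 bases before the start are printed for the 3 genes that were lowered in the DSS group, with capitals marking the GC box GGGCGG (the motif of Sp1-type factors) or the E-box CACGTG (the motif of basic helix-loop-helix factors), each searched on both strands, so that the GC box also appears as CCGCCC.

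Slc16a1 promoter, chr3:104638414-104638663, plus strand: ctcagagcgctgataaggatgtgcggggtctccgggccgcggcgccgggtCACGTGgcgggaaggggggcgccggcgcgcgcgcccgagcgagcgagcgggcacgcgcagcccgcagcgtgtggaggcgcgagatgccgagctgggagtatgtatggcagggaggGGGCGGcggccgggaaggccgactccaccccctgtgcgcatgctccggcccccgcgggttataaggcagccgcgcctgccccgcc

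Acads promoter, chr5:115119347-115119596, minus strand: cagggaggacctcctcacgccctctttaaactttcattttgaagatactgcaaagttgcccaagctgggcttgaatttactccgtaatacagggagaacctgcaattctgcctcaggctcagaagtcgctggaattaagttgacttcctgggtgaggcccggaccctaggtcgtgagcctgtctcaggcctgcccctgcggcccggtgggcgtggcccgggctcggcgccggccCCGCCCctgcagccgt

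Ffar2 promoter, chr7:30823776-30824025, minus strand: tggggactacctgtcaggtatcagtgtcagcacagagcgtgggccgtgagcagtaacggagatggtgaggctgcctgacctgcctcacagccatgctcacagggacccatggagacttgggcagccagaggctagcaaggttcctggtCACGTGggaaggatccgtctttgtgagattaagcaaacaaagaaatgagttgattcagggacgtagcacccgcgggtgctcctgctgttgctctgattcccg

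The Slc16a1 window held 1 GC box, 1 E-box and 37 CpG dinucleotides at 76.4% GC. The Acads window held 1 GC box and 14 CpG at 60.4% GC, and that of Ffar2 1 E-box and 9 CpG at 56.8% GC. Among 32851 windows of the same length in the table, 32.7% held a GC box and 6.02% an E-box, and the medians were 52.4% GC and 6 CpG. These letters describe the windows and are not sites shown to be bound.

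The total count per library was 15566216 to 19498383. Values are CPM (counts scaled to a fixed library size, after correction of the library sizes by the TMM factors of edgeR), and 17658 genes passed the filter on low counts, all 8 genes among them. A gene is called raised or lowered where the edgeR quasi-likelihood test, adjusted over the 17658 genes by the Benjamini-Hochberg method, gave under 0.05. A library in each of 2 groups stood apart. The summed CPM of 7 neutrophil markers was 17954 in DSS 2, against 887 and 984 in the other DSS libraries, 9.26 to 114 in Con, 27.1 to 121 in UA+DSS and 399 to 1014 in DSS+UA. Ly6g alone gave 112 of the 114 in Con 1 and 274 of the 399 in DSS+UA 2. At 300 CPM in DSS 2 and 287 in DSS 1 it did not follow the other markers, so the lower sums are a coarse measure of neutrophils. A position score (mean log2 CPM of 5 posterior Hox genes, high toward the rectum, minus that of 6 anterior ones) was 5.53 in Con 1 and -3.03 and -1.83 in the other Con libraries. The same score was 0.37 to 3.10 in DSS, -5.70 to -4.16 in UA+DSS and 4.11 to 5.06 in DSS+UA, so that the UA groups stood at opposite ends. The markers of the labelled tissue were present: 7 epithelial markers summed to 9816 to 13617 CPM in Con, 5944 to 8873 in DSS, 10147 to 12338 in UA+DSS and 11922 to 17052 in DSS+UA, and none of the 7 was at 0 in all libraries.

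Scaled per kilobase of exon, the Con group held most Slc16a1 (103 ± 30.1 CPM per kb, SD, n = 3) and Acads (100.4 ± 35.9), which differed by less than either SD. Slc5a8 (62.4 ± 8.71) and Oxct1 (60.1 ± 7.22) came next and also differed by less than their SD. Acat1 (49.9 ± 5.75), Bdh1 (36.4 ± 4.59) and Ffar2 (15.2 ± 9.38 CPM per kb) followed, each apart from its neighbour by more than the SD of either gene. Hcar2 was lowest by far at 0.548 ± 0.298 CPM per kb.

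**Figure D1:**
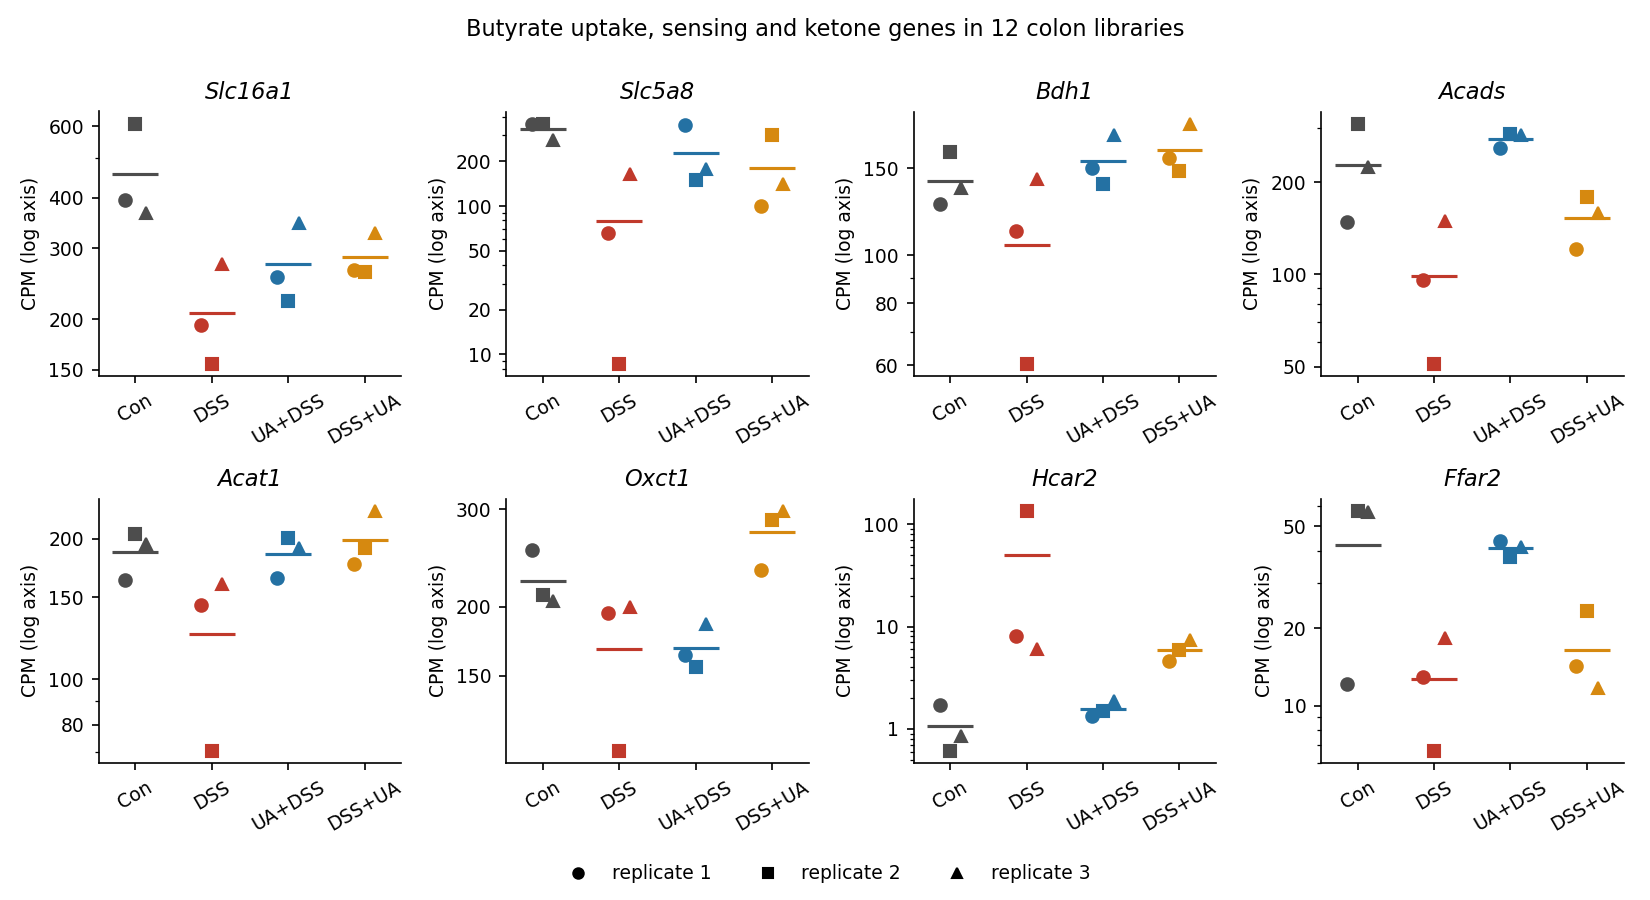
CPM (log axis) of the 8 genes in the 12 libraries, with colour for the group, symbol shape for the replicate number and a horizontal line at the arithmetic mean of each group. Slc16a1 lies between 367 and 610 CPM in Con and between 155 and 274 in DSS, and Hcar2 reaches 136 in DSS 2.

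DSS against Con asks what colitis did to these genes. By the edgeR call Slc16a1, Acads and Ffar2 were lower and Hcar2 was higher, and Acads and Ffar2 overlapped between the groups. Of the 8 genes, 1 was called raised (Hcar2) and 3 lowered (Slc16a1, Acads and Ffar2), where 13.9% of all tested genes were called raised and 12.6% lowered. The median log2 fold change was -0.86 over the 8 genes and -0.03 over all tested genes, and 7 of the 8 were lower in DSS. Fitted on the libraries of these 2 groups alone, none of the 4 passed (adjusted p of 0.0533 to 0.109). In whole tissue, fewer cells of a type and less RNA per cell cannot be told apart.

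Slc16a1, the proton-coupled butyrate and lactate transporter, was at 394, 610 and 367 CPM in Con and at 194, 155 and 274 in DSS. Every DSS library lay below every Con library, at a log2 fold change of -1.14 ± 0.27 (SE, n = 3 a group, edgeR adjusted p = 0.0130), a 2.20-fold fall. It stayed called without DSS 2 (-0.97, adjusted p = 0.0392) and with the position score in the model (-1.07, adjusted p = 0.0171), and lost the call without Con 2 (-0.87, adjusted p = 0.0523).

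Slc5a8, the sodium-coupled transporter, was at 359, 360 and 279 CPM in Con and at 66.1, 8.62 and 164 in DSS. The groups did not overlap, but the DSS libraries differed among themselves more than those of Con, with DSS 2 the lowest. The summed CPM of 7 absorptive colonocyte markers was 2819 to 10680 in Con and 798 to 4776 in DSS, so these ranges overlapped. All 7 markers were lower in DSS, where edgeR called 0 of them, DESeq2 3 and limma-voom 0. Their part in the result was not tested. The log2 fold change of -2.06 ± 0.81 did not pass (edgeR adjusted p = 0.0816). It passed without DSS 3 (-3.16, adjusted p = 0.0260), with DESeq2 (-2.06, 0.0171) and with limma-voom (-2.86, 0.0387).

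Acads, which catalyses the first oxidation step of butyryl-CoA, was at 148, 311 and 224 CPM in Con and at 95.9, 51.0 and 150 in DSS. The groups overlapped, since Con 1, the library with the high position score, lay just below DSS 3. The log2 fold change was -1.20 ± 0.36 (edgeR adjusted p = 0.0305). The call was lost without Con 2 (-0.91, adjusted p = 0.116), Con 3 (-1.22, 0.0559), DSS 1 (-1.18, 0.0817) or DSS 2 (-0.89, 0.0649), and it was kept with the position score in the model (-1.01, adjusted p = 0.0382).

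The other enzymes differed less, and none was called. Acat1, the thiolase that splits acetoacetyl-CoA, was at 163, 205 and 195 CPM in Con and at 144, 70.3 and 160 in DSS, with no overlap (log2 fold change -0.59 ± 0.26, adjusted p = 0.116). Bdh1, which interconverts acetoacetate and beta-hydroxybutyrate, was at 127, 161 and 136 CPM in Con and at 112, 60.4 and 143 in DSS (-0.43 ± 0.26, adjusted p = 0.234). Oxct1, which returns acetoacetate to acetoacetyl-CoA when ketone bodies are burned, was at 253, 210 and 205 CPM in Con and at 195, 110 and 199 in DSS, with no overlap (-0.41 ± 0.22, adjusted p = 0.193). In all 3 genes DSS 2 was the lowest of the 12 libraries.

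Hcar2 was at 1.71, 0.610 and 0.856 CPM in Con and at 8.08, 136 and 5.97 in DSS. Every DSS library was above every Con library, and DSS 2, the library with the highest neutrophil markers, was far above the rest. Its log2 fold change was 5.55 ± 1.16 (edgeR adjusted p = 0.00817), and without DSS 2 it was 2.72 (adjusted p = 0.00376). DSS 2 thus set the size of the rise and not its call, and limma-voom did not call it (4.24, adjusted p = 0.0746). Of the neutrophil markers, 6 of 7 were called raised. The markers of macrophages and monocytes also moved with Hcar2, with 4 of 5 called raised and sums of 149 to 375 CPM in Con and 981 to 3525 in DSS, and the part of either cell type in the Hcar2 level was not tested.

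Ffar2 was at 12.1, 57.7 and 57.2 CPM in Con and at 13.0, 6.66 and 18.4 in DSS. Con 1 lay below DSS 1 and DSS 3, and the other Con libraries lay above all of DSS. DSS 2, which had the most neutrophil marker RNA, had the least Ffar2 of the 12 libraries. For Ffar2 the log2 fold change was -1.74 ± 0.54 (edgeR adjusted p = 0.0374). It was -2.18 without Con 1 (adjusted p = 0.00860), -1.09 with the position score in the model (adjusted p = 0.0489) and no longer called without DSS 2 (-1.43, adjusted p = 0.104). The call also ended without Con 2 (-1.45, 0.115), Con 3 (-1.46, 0.0959), DSS 1 (-1.75, 0.0902), UA+DSS 1 (-1.73, 0.0544), UA+DSS 2 (-1.73, 0.0536), UA+DSS 3 (-1.73, 0.0535) or DSS+UA 1 (-1.73, 0.0501), without the filter on low counts (-1.73, 0.0952) and with limma-voom (-1.54, 0.0794). It was kept in 8 of 20 alternatives.

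**Figure D2:**
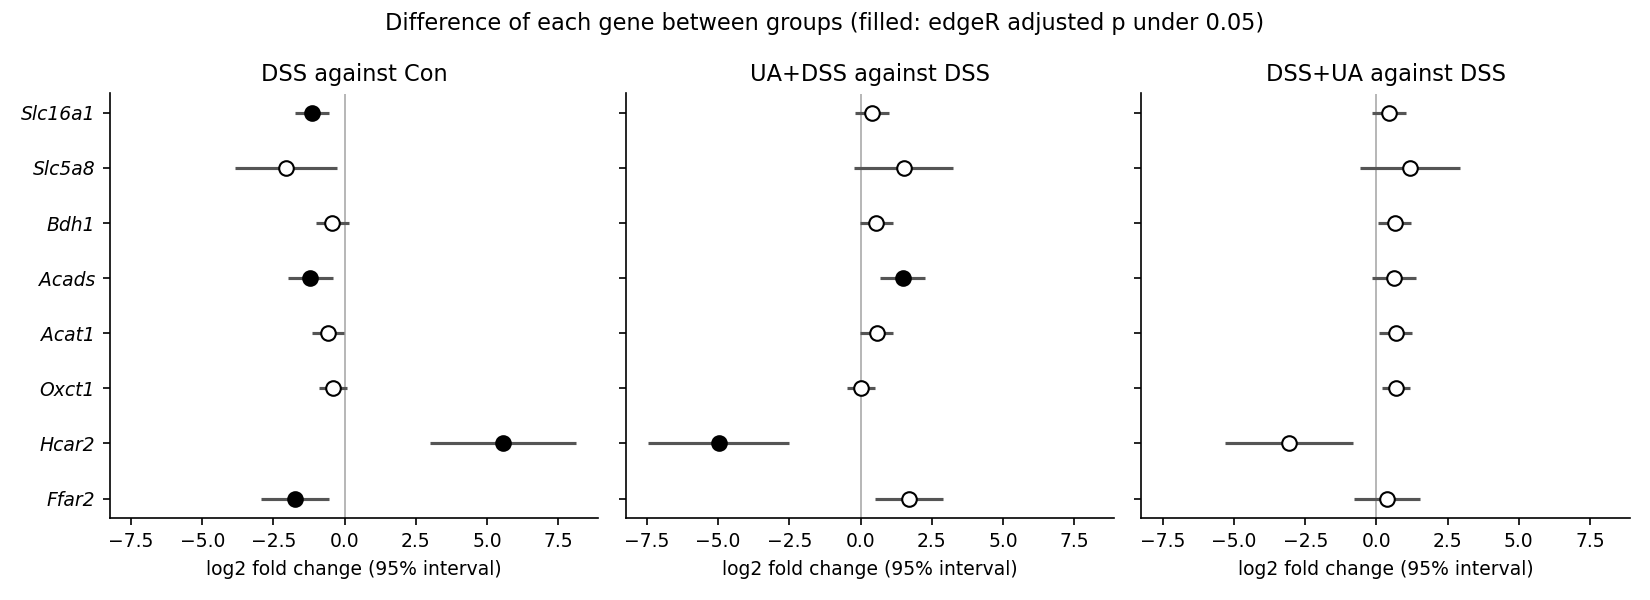
Log2 fold change (x axis) with 95% interval of each gene (y axis) in DSS against Con, UA+DSS against DSS and DSS+UA against DSS, from 1 fit of the 12 libraries. Filled circles have an edgeR adjusted p under 0.05: Slc16a1, Acads, Hcar2 and Ffar2 in the first panel, Acads and Hcar2 in the second and none in the third.

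The epithelial markers were themselves lower in DSS, so each gene was also set against their sum, a measure added after the values were seen and given without a test. Slc16a1 was 3.74% to 4.48% of the summed epithelial marker CPM in Con and 2.55% to 3.09% in DSS, with no overlap. Slc5a8 was 2.64% to 3.57% in Con and 0.145% to 1.85% in DSS, also with no overlap. Acads overlapped (1.47% to 2.29% in Con, 0.859% to 1.69% in DSS). Bdh1 was 1.19% to 1.39% in Con and 1.02% to 1.61% in DSS, Acat1 was 1.505% to 1.98% and 1.18% to 1.90%, and Oxct1 was 1.54% to 2.52% and 1.85% to 2.57%. On this measure the transporters stayed lower in every DSS library, while the ranges of the 4 enzymes overlapped. Krt8 was the largest part of the sum in Con and DSS. Epcam was lower in every DSS library (774 to 1241 CPM against 1700 to 2201 in Con), while Krt19 overlapped (1304 to 1847 against 1711 to 2616). The percentages in Con and DSS, and the separation of Slc16a1, therefore depend on which markers are summed.

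**Figure D3:**
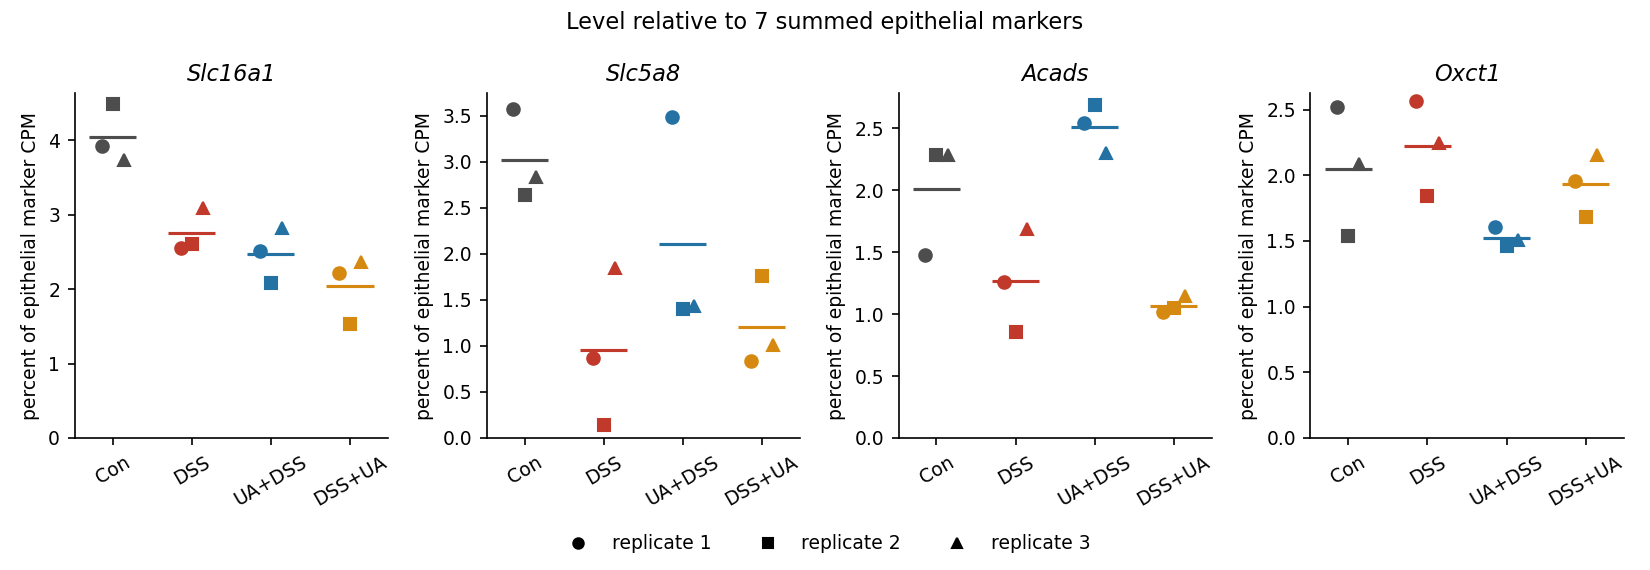
CPM of Slc16a1, Slc5a8, Acads and Oxct1 as a percentage of the summed CPM of 7 epithelial markers (y axis, from 0) in each library, with colour for the group, symbol shape for the replicate number and a line at the group mean. Slc16a1 is at 3.74% or more in Con and at 3.09% or less in every other library.

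The UA+DSS libraries, compared with DSS, show whether UA begun before the colitis went with other levels of these genes. Acads was called raised and Hcar2 lowered, 1 gene each way, where 8.21% of all tested genes were called raised and 10.5% lowered. The median log2 fold change was 0.57 over the 8 genes and -0.02 over all tested genes. This comparison shares the DSS libraries with the one before, so a library that is low in DSS enters both.

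Acads was at 258, 287 and 284 CPM in UA+DSS, above all 3 DSS libraries, a log2 fold change of 1.48 ± 0.36 (edgeR adjusted p = 0.0200), a 2.79-fold rise. It was 1.17 without DSS 2 (adjusted p = 0.0416), and the call was lost without DSS 1 (1.45, 0.0604), UA+DSS 2 (1.45, 0.0791) or UA+DSS 3 (1.46, 0.0541). With the position score in the model the log2 fold change was 0.77 (adjusted p = 0.348), in a fit that called 3 of the 17658 tested genes in this comparison. The summed absorptive colonocyte markers were also higher, at 9259 to 13580 CPM in UA+DSS and 798 to 4776 in DSS, as were 5 goblet cell markers (8641 to 9281 CPM and 508 to 5144). Of these 7 and 5 markers 1 and 0 were called raised. Car1 alone gave 4602 to 9357 CPM of the colonocyte sum in UA+DSS and 202 to 1644 in DSS. Car4, Slc26a3 and Aqp8 overlapped DSS, while Krt20, Slc9a3 and Guca2a did not. The part of absorptive colonocytes and goblet cells in the level of Acads was not tested.

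Hcar2 was at 1.35, 1.499 and 1.86 CPM in UA+DSS, below all DSS libraries and within or just above the Con range. The log2 fold change was -4.99 ± 1.12 (edgeR adjusted p = 0.0172), and -2.16 without DSS 2 (adjusted p = 0.0182). The call was lost without UA+DSS 1 (-4.88, 0.0548), UA+DSS 2 (-4.95, 0.0832) or UA+DSS 3 (-5.13, 0.0589), with the position score in the model (-4.14, 0.218), without the filter on low counts (-4.97, 0.0504), on the libraries of the 2 groups alone (-4.99, 0.0624) and with limma-voom (-3.56, 0.115). All 7 neutrophil markers were called lowered with it, at 27.1 to 121 CPM in UA+DSS and 887 to 17954 in DSS. Of the 5 macrophage and monocyte markers 4 were called lowered, with sums of 257 to 535 CPM in UA+DSS and 981 to 3525 in DSS, and the part of either cell type was not tested.

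Ffar2 was at 43.8, 37.9 and 41.7 CPM in UA+DSS, above all DSS libraries, and its log2 fold change of 1.70 ± 0.54 just missed the threshold (edgeR adjusted p = 0.0507). Leaving out Con 1, which enters only through the shared spread, gave 1.70 with an adjusted p of 0.0128, and leaving out DSS 3 gave 2.06 with 0.0430. It was also called by DESeq2 (1.69, 0.00880) and on the libraries of the 2 groups alone (1.70, 0.0384). With the position score in the model the log2 fold change of Ffar2 was 0.04 (adjusted p = 0.971). That fit called 3 of the 17658 tested genes in this comparison, and the score did not overlap between these groups. The part of position in the Ffar2 difference was not tested.

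None of the other 5 genes passed. Slc16a1 was at 255, 222 and 347 CPM in UA+DSS (0.40 ± 0.27, adjusted p = 0.321) and Slc5a8 at 354, 149 and 177 CPM (1.51 ± 0.79, adjusted p = 0.204). Both overlapped DSS, and only UA+DSS 1 had Slc5a8 within the Con range. Acat1 was at 165, 200 and 191 CPM (0.57 ± 0.26, adjusted p = 0.146) and Bdh1 at 150, 139 and 175 CPM (0.56 ± 0.26, adjusted p = 0.152), and without DSS 3 Bdh1 was called (0.84, adjusted p = 0.0410). Oxct1 was at 163, 156 and 186 CPM, a log2 fold change of 0.003 ± 0.22 (adjusted p = 0.995) whose sign depended on the scaling.

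Set against the epithelial markers, Slc16a1 was 2.09% to 2.81% in UA+DSS and 1.53% to 2.36% in DSS+UA, below the 3.74% to 4.48% of Con in every library. In DSS+UA the largest parts of the marker sum were Krt8 and Krt19. Krt19 was above Con in every DSS+UA library (2957 to 3809 CPM against 1711 to 2616), while Cdh1 overlapped Con (781 to 1007 against 850 to 1124). The percentages in DSS+UA therefore depend on which markers are summed. Acads was 2.30% to 2.69% in UA+DSS, above the ranges of the other 3 groups, and 1.01% to 1.15% in DSS+UA. Ffar2 was at 0.338% to 0.432% in UA+DSS and 0.0850% to 0.137% in DSS+UA, with Con spread from 0.121% to 0.582%.

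DSS+UA against DSS addresses UA begun after the colitis had started. None of the 8 genes was called, where 7.54% of all tested genes were called in either direction. At an unadjusted p under 0.05 there were 4 (Bdh1, Acat1, Oxct1 and Hcar2), DESeq2 called 1 of the 7 genes for which it gave an adjusted p, and limma-voom called 0. The median log2 fold change was 0.63 over the 8 genes and 0.02 over all tested genes.

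Oxct1 was at 233, 287 and 298 CPM in DSS+UA, above all DSS libraries (log2 fold change 0.70 ± 0.22, edgeR adjusted p = 0.0713). It was the gene called by DESeq2 (0.70, adjusted p = 0.0277), and without DSS 2 it was 0.48 (adjusted p = 0.163). Acat1 was at 177, 191 and 230 CPM (0.67 ± 0.26, adjusted p = 0.115) and Bdh1 at 157, 148 and 185 CPM (0.64 ± 0.26, adjusted p = 0.130), and neither overlapped DSS. Bdh1 passed without DSS 3 (0.93, adjusted p = 0.0496). The epithelial markers were higher as well, at 11922 to 17052 CPM in DSS+UA and 5944 to 8873 in DSS, with 3 of 7 called raised. As a percentage of their sum all 3 enzymes overlapped DSS: Oxct1 was 1.69% to 2.16% in DSS+UA and 1.85% to 2.57% in DSS, Acat1 1.12% to 1.66% and 1.18% to 1.90%, and Bdh1 0.868% to 1.33% and 1.02% to 1.61%. Krt8 and Krt19 weigh most in this sum, so it does not measure epithelial cells alone.

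Hcar2 was at 4.63, 5.94 and 7.32 CPM in DSS+UA, all below DSS 1 and DSS 2, and overlapped DSS through DSS 3 alone. Its log2 fold change of -3.07 ± 1.01 (edgeR adjusted p = 0.0792) rested on DSS 2, since it was -0.22 without that library (adjusted p = 0.792). It was called without DSS 1 (-3.56, 0.049996) and without DSS 3 (-3.58, 0.0408). Slc16a1 was at 265, 262 and 327 CPM (0.45 ± 0.27, adjusted p = 0.283), Slc5a8 at 99.95, 301 and 140 (1.18 ± 0.79, 0.339), Acads at 121, 178 and 159 (0.63 ± 0.35, 0.259) and Ffar2 at 14.2, 23.3 and 11.8 (0.37 ± 0.53, 0.668). All 4 overlapped DSS.

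Against Con, none of the 8 genes was called in UA+DSS, where 0.00566% of all tested genes were called in either direction. At an unadjusted p under 0.05 there was 1, Slc16a1, and DESeq2 and limma-voom each called 0. Slc16a1 lay below Con in all 3 libraries (-0.73 ± 0.27, edgeR adjusted p = 0.342), as did Oxct1 (-0.40 ± 0.22, adjusted p = 0.484). The 95% interval of the difference was -1.33 to -0.14 for Slc16a1 and -1.19 to 1.11 for Ffar2, so that a Ffar2 difference of 2-fold in either direction lay within it.

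In DSS+UA against Con none of the 8 was called either, where 9.13% of all tested genes were called raised and 8.95% lowered. At an unadjusted p under 0.05 there were 3 (Slc16a1, Hcar2 and Ffar2), DESeq2 called 1 and limma-voom 0. Slc16a1 was below Con in all 3 libraries (-0.68 ± 0.27, edgeR adjusted p = 0.0956). Hcar2 was above Con in all 3 (2.48 ± 1.05, adjusted p = 0.118) and was called without DSS 2 (2.49, adjusted p = 0.00384). Ffar2 overlapped Con only through Con 1 (-1.37 ± 0.53, adjusted p = 0.0938), was called without Con 1 (-1.80, 0.0132), and was at 0.03 with the position score in the model (adjusted p = 0.969).

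The UA groups were also compared directly, UA+DSS against DSS+UA. None of the 8 genes was called, where 7.54% of all tested genes were called raised and 9.23% lowered. At an unadjusted p under 0.05 there were 3 (Acads, Oxct1 and Ffar2), DESeq2 called 2 and limma-voom 0. In these 3 genes and in Hcar2 the groups did not overlap. Oxct1 was lower in UA+DSS (-0.70 ± 0.22, edgeR adjusted p = 0.0541) and was called without DSS 2 (-0.72, 0.0142) and without Con 1 (-0.70, 0.0473). Acads was higher (0.85 ± 0.36, adjusted p = 0.117), and so was Ffar2 (1.32 ± 0.53, adjusted p = 0.109), which was called without Con 1 (1.32, 0.0238). Hcar2 was lower (-1.92 ± 1.02, adjusted p = 0.216) and was called without DSS 2 (-1.94, 0.0105). With the position score in the model Acads stood at -0.20 (adjusted p = 0.919) and Ffar2 at -1.08 (adjusted p = 0.535), the opposite direction, while Oxct1 stood at -0.31 (adjusted p = 0.788) and Hcar2 at -0.64 (adjusted p = 0.931). The position score separates these groups completely.

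Some of these genes differed along the position score within the Con group, where no mouse had DSS or UA. Con 1 had 12.1 CPM of Ffar2 against 57.7 and 57.2 in the other Con libraries, and 148 CPM of Acads against 311 and 224. Oxct1 went the other way, with 253 CPM in Con 1 against 210 and 205. These are 3 mice, and the part of the stretch of colon sampled in any group difference was not tested.

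**Figure D4:**
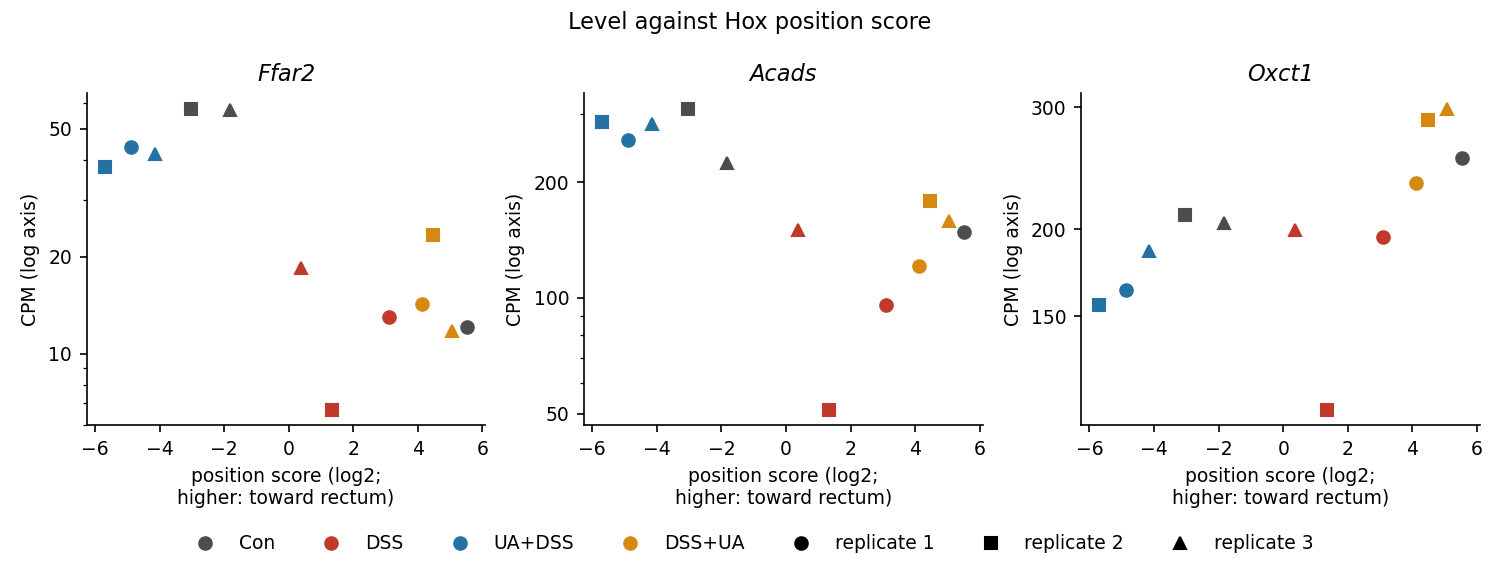
CPM (log axis) of Ffar2, Acads and Oxct1 against the position score (log2 units, higher toward the rectum) in the 12 libraries, with colour for the group and symbol shape for the replicate number. Con 1, at a score of 5.53, has 12.1 CPM of Ffar2 and 148 of Acads and lies beside the DSS+UA libraries, away from the other Con libraries.

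Another 43 genes of the pathway, in 4 lists, were examined beside the 8, and 36 of them passed the filter. Among 13 tested genes for activating and oxidizing short and medium acyl chains, 7 were called lowered and 0 raised in DSS against Con, with 12 of 13 lower and a median log2 fold change of -0.83. Over all tested genes 12.6% were called lowered and 13.9% raised, with a median of -0.03. In UA+DSS against DSS 9 were called raised and 0 lowered, with a median of 0.93, where 8.21% of all tested genes were called raised and 10.5% lowered. None of the 9 calls was kept with the position score in the model (log2 fold changes of 0.14 to 1.27). That fit called 0.0170% of all tested genes in this comparison, so the loss does not set these genes apart. Acadm, the medium-chain acyl-CoA dehydrogenase, was at 153 to 198 CPM in Con, 58.6 to 94.8 in DSS, 145 to 219 in UA+DSS and 93.9 to 145 in DSS+UA. It was called raised in UA+DSS against DSS (1.27 ± 0.23, edgeR adjusted p = 0.0104), a call lost without UA+DSS 2 (1.11, 0.0566) and with the position score (1.16, 0.130).

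In DSS+UA against DSS 1 of the 13 was called raised and 1 lowered. Etfb, a subunit of the electron carrier that takes electrons from acyl-CoA dehydrogenases, was raised (1.01 ± 0.26, adjusted p = 0.0422), but 44.8% of its 50-base stretches occur in other genes, so its counts are uncertain. Acss3, an acyl-CoA synthetase of short chains, was lowered, from 0.902 to 2.31 CPM in DSS to 0 to 0.263 CPM in DSS+UA (-3.48 ± 0.80, adjusted p = 0.0321). The call of Etfb held in 7 of 20 alternatives and was lost without Con 2, UA+DSS 1 or 3, DSS+UA 2 or 3 or any DSS library, and with the position score among other settings (adjusted p of up to 0.155). The call of Acss3 held in 11 of 20 and was lost without DSS 1, DSS+UA 2 or 3 or any UA+DSS library, with the position score, with the replicate block and in the fit of the 2 groups (up to 0.108).

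Among 10 other tested genes of uptake, export and sensing, 3 were called raised and 3 lowered in DSS against Con, beside the 13.9% and 12.6% of all tested genes. Emb, the glycoprotein embigin that accompanies monocarboxylate transporters to the membrane, rose from 3.36 to 5.67 CPM in Con to 34.0 to 117 in DSS (3.89 ± 0.48, edgeR adjusted p = 0.00135), and its log2 fold change was 3.08 without DSS 2 (adjusted p = 0.000455). Slc16a6, another member of the transporter family, rose from 9.82 to 10.5 CPM to 27.2 to 51.1 (1.78 ± 0.31, adjusted p = 0.00379). Slc16a3, the lactate exporter MCT4, is named after its values were seen. It rose from 8.54 to 8.77 CPM to 31.7 to 647 (4.78 ± 1.08, adjusted p = 0.0110), with a log2 fold change of 1.96 without DSS 2 (adjusted p = 0.00357). Of the 10 genes, these 3 were higher in DSS and 7 were lower, as Slc16a1 was. Among the 7, Bsg, also named after its values were seen, was called lowered (-0.74 ± 0.24, edgeR adjusted p = 0.0396). Its call was kept in 10 of 20 alternatives, and was lost without DSS 2 (-0.66, 0.106) among others. The part of neutrophils and of macrophages in the 3 rises was not tested.

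Emb was called lowered in UA+DSS against DSS (9.06 to 14.2 CPM, -2.52 ± 0.45, adjusted p = 0.0101) and, with 12.7 to 18.6 CPM, in DSS+UA against DSS (-1.93 ± 0.44, adjusted p = 0.0331). The first call was lost without UA+DSS 2 (-2.40, 0.0581) and with the position score (-2.91, 0.107). The second was lost without DSS 2 (-1.11, 0.0677), UA+DSS 2 (-1.92, 0.0502), UA+DSS 3 (-1.91, 0.0519), DSS+UA 1 (-1.99, 0.0587), DSS+UA 2 (-2.05, 0.0929) or DSS+UA 3 (-1.75, 0.123), with the replicate block (-1.83, 0.0597), with the position score (-1.75, 0.0853) and on the libraries of the 2 groups alone (-1.98, 0.0986).

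Ffar3, the short-chain fatty acid receptor GPR41, and Olfr78, an olfactory receptor that binds acetate and propionate, were called lowered in DSS+UA against Con and also in DSS against Con (-2.30 ± 0.51, edgeR adjusted p = 0.00925, and -2.70 ± 0.50, 0.00480). Ffar3 was at 0.828 to 1.498 CPM in Con and 0.0619 to 0.211 in DSS+UA (-3.20 ± 0.56, edgeR adjusted p = 0.00652). It held only 128 counts in the 12 libraries together, so its levels rest on few reads. Olfr78 was at 5.66 to 20.8 CPM in Con and 1.28 to 2.16 in DSS+UA (-2.82 ± 0.51, adjusted p = 0.00715), with 14.2% of its 50-base stretches found in other genes. Without Con 1 the log2 fold change of Olfr78 was -2.09 in DSS+UA against Con (adjusted p = 0.0104) and -1.97 in DSS against Con (adjusted p = 0.0126). Ffar2, the relative of Ffar3 among the 8 genes, had a mean of 42.3 ± 26.2 CPM (SD, n = 3) in Con and 16.4 ± 6.09 in DSS+UA and was not called.

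Of 7 regulators, 4 were called lowered in DSS against Con and 4 raised in UA+DSS against DSS, with none called the other way. Over all tested genes these shares were 12.6% and 8.21%. Ppara, Ppargc1a and Sirt3 were in both sets of calls. Foxa2, named after its values were seen, was only in the first (UA+DSS against DSS 0.19 ± 0.47, edgeR adjusted p = 0.811). Pparg was only in the second (DSS against Con -0.81 ± 0.44, edgeR adjusted p = 0.187). The lowered call of Ppara held in 8 of 20 alternatives. With the position score in the model the 4 lowered calls were kept and none of the 4 raised ones was, at 0.28 for Pparg (adjusted p = 0.745), named after its values were seen, 1.48 for Ppara (0.205), 0.97 for Sirt3 (0.138) and 2.18 for Ppargc1a (0.119). That fit called 0.0170% of all tested genes in UA+DSS against DSS, so the lost calls do not set these regulators apart. Sirt3, the mitochondrial deacetylase, was at 18.2 ± 1.40 CPM (SD, n = 3) in Con and 8.28 ± 1.19 in DSS (log2 fold change -1.14 ± 0.21, edgeR adjusted p = 0.00432). Ppargc1a, a coactivator of mitochondrial biogenesis, was at 8.51 ± 2.21 CPM in DSS and 42.9 ± 26.5 in UA+DSS (2.33 ± 0.39, adjusted p = 0.00972). Ppara, a nuclear receptor of fatty acids, was at 25.7 ± 11.1 CPM in UA+DSS and 2.31 ± 1.18 in DSS+UA (3.47 ± 0.67, adjusted p = 0.0105), and at 0.48 with the position score (adjusted p = 0.834).

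Acat2, the cytosolic thiolase, was lower in UA+DSS than in DSS+UA (-1.73 ± 0.27, edgeR adjusted p = 0.00734, and -1.32 with the position score, 0.353), and 39.1% of its 50-base stretches occur in Acat3, so reads could be split between them. Over the 36 tested genes, 5 were called raised and 14 lowered in DSS against Con, 15 and 4 in UA+DSS against DSS, 8 and 3 in UA+DSS against DSS+UA, 3 and 5 in DSS+UA against Con, and 2 and 2 in DSS+UA against DSS. The shares of all tested genes called raised and lowered were 13.9% and 12.6%, 8.21% and 10.5%, 7.54% and 9.23%, and 9.13% and 8.95% in the first 4 of these, and 7.54% in either direction in the last. With the position score in the model all 19 calls in DSS against Con were kept, 3 of the 8 in DSS+UA against Con (Ffar3, Olfr78 and Hmgcll1, the last named after its values were seen), and none in the other 3 comparisons. That fit called 30.5% of all tested genes in DSS against Con, 12.3% in DSS+UA against Con, 0.0170% in UA+DSS against DSS, 1.13% where DSS+UA was set against DSS, and none where the UA groups were compared. In UA+DSS against Con 0 of the 36 were called by edgeR, 6 had an unadjusted p under 0.05, DESeq2 called 1 and limma-voom 0.

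**Figure D5:**
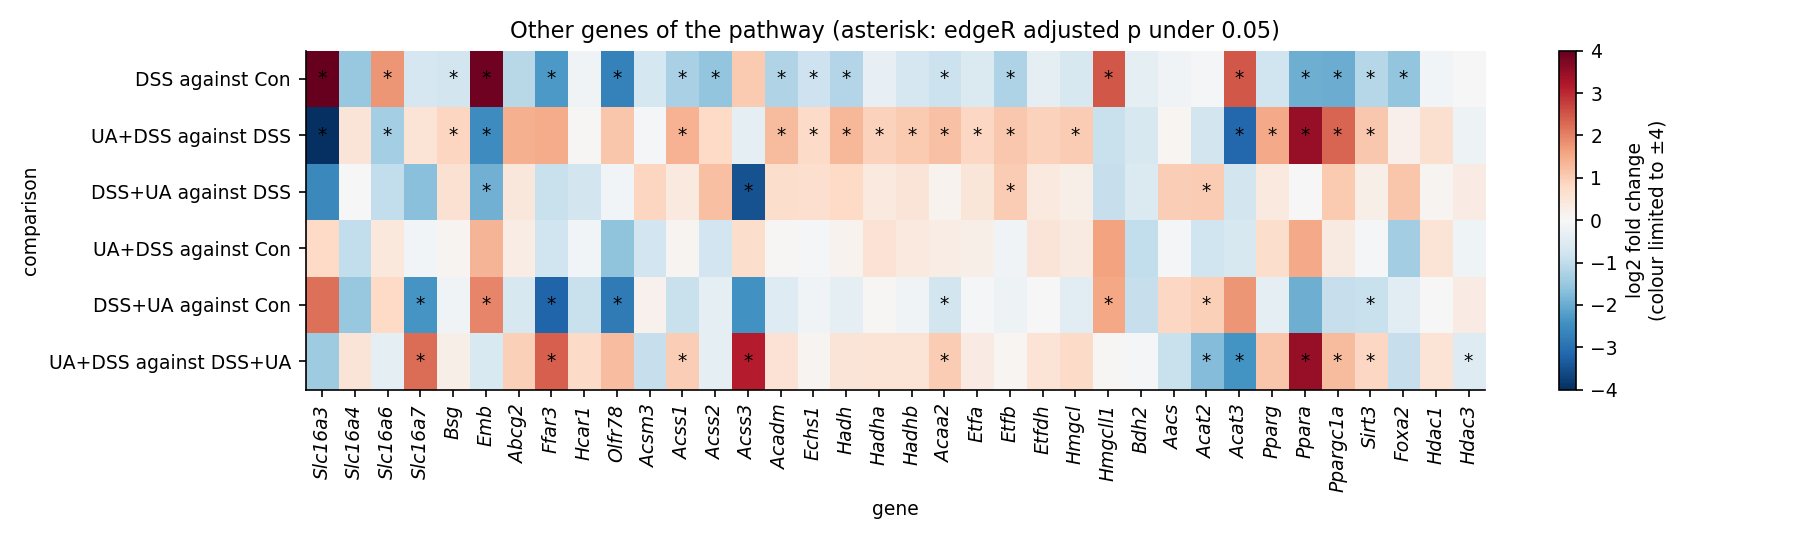
Log2 fold change of the 36 tested genes of the pathway (x axis, by list) in the 6 comparisons (y axis), red where the first group is higher and blue where it is lower, with the colour limited at 4 in either direction and an asterisk at an edgeR adjusted p under 0.05. The rows of DSS against Con and UA+DSS against DSS share the DSS libraries, and hold 19 asterisks each, while UA+DSS against Con holds 0.

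Across the 12 libraries the genes most like each of the 8 in log2 CPM were named by Pearson's r, as a description over libraries that share the same groups and depth. Slc5a8 was most like Car4 (r = 0.984), a carbonic anhydrase of absorptive colonocytes, then Akr1c14 (0.9748) and Pla2g3 (0.969). Hcar2 was most like Il1rn (0.988), the interleukin-1 receptor antagonist, then Gpsm3 (0.982) and Trim30b (0.9805). Ffar2 was most like Klhdc8a (0.976), Kctd14 (0.974) and Muc2 (0.969), the goblet cell mucin. The nearest to Acads were Sort1 (0.990), Maoa (0.986) and Cth (0.983), and to Slc16a1 Ptpn3 (0.933), Pomgnt1 (0.922) and Tmem135 (0.917), the lowest set of values among the 8.

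Acat1 was most like Pank1 (0.969), Cadps2 (0.964) and Atp1b1 (0.962), and Oxct1 most like Pcx (0.972), the pyruvate carboxylase, Nrap (0.971) and Ccdc32 (0.964). Bdh1 was most like Pafah2 (0.964), Entpd6 (0.960) and Acat1 (0.950), so that the ketone enzymes Bdh1 and Acat1 were close to each other. Among pairs of the 8, Acads and Ffar2 had an r of 0.903, and Acads and Oxct1 only 0.264. Oxct1 and Ffar2 were at 0.015. Hcar2 was negative with every other gene of the 8, from -0.903 with Acads to -0.357 with Oxct1.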

How the data were processed

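The authors mapped RNA-seq reads of mouse colon to GRCm38 and deposited raw counts, whole numbers per Ensembl gene that were not scaled. The submitters' processing notes name FastQC, HISAT2 and Cuffdiff. Their versions, the program that counted, its strand setting and how multiply mapped reads were treated were not given in the sources used here. The methods name 3 colonic tissues per group. For RNA extraction the labels name Trizol and the methods the RNeasy kit.

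Groups and replicate numbers came from the sample titles. Rows without a gene name in the GENCODE vM21 annotation were kept. edgeR 4.0.16 in R 4.3.3 kept 17658 genes (filterByExpr), holding 99.8% of the counts, with TMM factors of 0.871 to 1.09. One robust quasi-likelihood model of the 12 libraries (biological coefficient of variation 0.352) gave every comparison, with SE, 95% intervals and Benjamini-Hochberg adjustment, called under 0.05. Correlations used log2 CPM with a prior count of 2, and exon lengths were unions over transcripts.

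Alternatives were library size alone, DESeq2 size factors, no filter, the replicate number as a block, the position score as a covariate, a fit of only the 2 groups compared, leaving out each library, limma-voom (limma 3.58.1) and DESeq2 1.42.0. Named genes were the 8, the 3 smallest p of the other pathway lists per comparison among called genes, and for each of the 8 the 3 genes of highest correlation. Of the genes so named, 1 is left out here. The 8 genes, the lists, the markers and the position score were chosen with earlier results of these data known. Set against a depth of 15566216 counts or more, Hcar2 in Con, with 11 to 33 counts a library, is the level counted least precisely among the 8 genes. Some of the other pathway genes were counted less precisely, such as Ffar3 (128 counts in the 12 libraries together) and Acss3 (200). Figures were drawn with matplotlib 3.10.9.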

Additional observations from a re-analysis of the deposited data

How the results depend on the processing

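Among 954 pairs of a gene's comparison and an alternative, 867 kept the direction and the side of the threshold, 32 lost the call, 26 gained it and 29 changed sign, none of the last in a called gene. Of the 8 genes, 4 were called in DSS against Con and 0 when only those 2 groups were fitted. In UA+DSS against DSS 2 were called, 1 without a filter, 1 with limma-voom and 0 with the position score. DESeq2 called 1 in DSS+UA against DSS (main 0), 1 in DSS+UA against Con (main 0) and 2 in UA+DSS against DSS+UA (main 0), and the fit of the 2 groups called 1 in DSS+UA against Con and 4 in UA+DSS against DSS+UA. Leaving out each library in turn gave 1 to 5 calls in DSS against Con, 0 to 4 in UA+DSS against DSS, 0 to 2 in DSS+UA against DSS, 0 to 1 in DSS+UA against Con and 0 to 2 in UA+DSS against DSS+UA. Leaving out a library and fitting 2 groups alone use fewer samples by construction, and for the other changes the cause was not tested.

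Sign changes were all in uncalled genes. Oxct1 in UA+DSS against DSS was -0.095 with the library size, -0.0049 with DESeq2 size factors and -0.0049 with DESeq2. With the position score, UA+DSS against Con gave -0.0024 for Bdh1 and -0.23 for Acads, DSS+UA against Con gave 0.034 for Ffar2, and UA+DSS against DSS+UA gave -0.20 for Acads and -1.08 for Ffar2. Ffar2 in UA+DSS against Con was 0.087 with the replicate block and 0.27 with limma-voom. Leaving out each library gave -0.23 to 0.14 for Oxct1 in UA+DSS against DSS, -0.0082 to 0.75 for Ffar2 in DSS+UA against DSS, -0.11 to 0.067 for Acat1 and -0.48 to 0.25 for Ffar2 in UA+DSS against Con, and -0.015 to 0.18 for Acat1 in DSS+UA against Con. In UA+DSS against DSS+UA it gave -0.27 to 0.081 for Slc16a1, -0.14 to 0.90 for Slc5a8 and -0.19 to 0.0024 for Bdh1.

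The replicate numbers were not used as pairs in the main fit. Libraries of the same number had correlations of -0.216 to 0.187 in their deviations from the group means over 18 pairs. These values do not show whether same-numbered mice were handled together. With the replicate block 3 of the 8 genes were called in DSS against Con and 2 in UA+DSS against DSS, Ffar2 losing its call in the first (-1.63, adjusted p = 0.0703). The library size alone moved the median of all genes by -0.13 in DSS+UA against DSS, the only shift above 0.1 in either direction. With 3 mice a group, Acat1 (-0.59 ± 0.26, edgeR adjusted p = 0.116) and Bdh1 (-0.43 ± 0.26, 0.234) were not called in DSS against Con. How large a difference must be to be called with so few mice is not given here, so these results do not show that the genes were unchanged. The p-values rest on a spread shared by the 12 libraries.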
